A study of Saccharomyces cerevisiae with 8 samples.

Results

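A listed set of 38 nuclear genes for subunits of the yeast respiratory chain and ATP synthase was taken out of 6002 nuclear protein-coding genes, by membership of these complexes. The list does not hold every such gene, and others, such as *NDE2* and *TIM11*, were counted with the related genes. A promoter was counted from 500 bp upstream to 100 bp downstream of the first coding base in sacCer3 (R64), and it was scored as having a peak in a library when the summit of an ATAC-seq peak fell inside that window. ATAC-seq uses a transposase to cut and tag open DNA, so a peak marks a stretch of accessible chromatin. Of the 38 promoters, 22 had a peak in at least 1 of the 8 peak lists, 16 had none and 3, those of *CYC1*, *ATP7* and *NDI1*, had a peak in all 8. Over all 6002 genes, 32.1% of promoters had a peak in at least 1 list and 4.37% in all 8. The members stood at 57.9% and 7.89%. Of the 22 members with a peak, 12 had it in only 1 or 2 lists, as did 804 of the 1928 genes with any promoter peak. Of all pairs of a promoter and a library, 24.0% held a peak for members and 15.4% for all genes.

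All strains were BY4741, a laboratory *Saccharomyces cerevisiae* strain that requires histidine, leucine, methionine and uracil because of lesions in *HIS3*, *LEU2*, *MET15* and *URA3*. Each of the 4 strains carried the human *HPRT1* locus or a synthetic reversed version of it, *HPRT1R*, either as an episome (YAC) on a vector with a *LEU2* marker or integrated on chromosome XI, and each was represented by 2 independent clones. Episomal strains were grown in SC-Leu and integrated strains in YPD, to mid-log phase, so medium, episome and marker changed together and cannot be told apart. The lists held 1029 to 1337 peaks, of which 988 to 1284 were nuclear, and they give no read totals. The genome-wide background recovered from the lists was 4.97 to 6.93 fragments, and the weakest nuclear peaks had 13 to 16 fragments at the summit. *LEU2* held 1 or 2 peaks in every SC-Leu library and none in any YPD library, and *URA3*, *MET15* and *HIS3* held none in any library. The YPD lists held 993 to 1284 nuclear peaks and the SC-Leu lists 988 to 1041.

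Respiration in yeast passes electrons from NADH and succinate through ubiquinone, complex III and cytochrome *c* to complex IV, and the resulting proton gradient drives ATP synthase. Yeast has no proton-pumping complex I and uses single-polypeptide NADH dehydrogenases in its place. Most subunits are encoded in the nucleus, and transcription of many of these genes is known to depend on the Hap2/3/4/5 complex, which binds CCAAT-containing sites, and on Hap1, which responds to haem. Growth on glucose is known to hold many of them at a low level. Yeast promoters are also kept open by general regulatory factors such as Reb1, Abf1 and Cbf1.

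The sequences under the 5 most recurrent peaks are shown because the positional results rest on them. Each run is 151 bases from sacCer3 (R64, RefSeq) centred on the median summit and written 5′ to 3′ on the coding strand of the named gene, and capitals mark exact matches on either strand to any of 9 short words. The words were CCAAT, the Hap2/3/4/5 word TNATTGGT, the Hap1 word CGGNNNTANCGG, the Reb1 word TTACCCG, the Cbf1 word CACGTG, the Abf1 consensus, the poly(dA:dT) run AAAAAAA, the TATA word TATAAA and the Rox1 core ATTGTTC. Every match to the Hap2/3/4/5 word contains CCAAT. A match is a description of letters and not a bound site. A site whose letters differ from the word is not marked, so a missing match does not show that a site is absent.
*CYC1*, chrX:525886-526036, forward strand: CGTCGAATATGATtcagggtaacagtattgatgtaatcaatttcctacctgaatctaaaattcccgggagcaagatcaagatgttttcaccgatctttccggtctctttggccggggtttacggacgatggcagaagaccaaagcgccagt
*NDI1*, chrXIII:29931-30081, reverse strand: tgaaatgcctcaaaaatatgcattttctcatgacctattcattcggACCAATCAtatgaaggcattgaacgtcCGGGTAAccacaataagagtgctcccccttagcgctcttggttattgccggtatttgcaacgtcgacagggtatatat
*ATP7*, chrXI:408230-408380, reverse strand: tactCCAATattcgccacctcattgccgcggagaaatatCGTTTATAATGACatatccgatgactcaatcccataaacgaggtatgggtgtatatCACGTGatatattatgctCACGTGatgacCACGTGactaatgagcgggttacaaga
*QCR6*, chrVI:225057-225207, reverse strand: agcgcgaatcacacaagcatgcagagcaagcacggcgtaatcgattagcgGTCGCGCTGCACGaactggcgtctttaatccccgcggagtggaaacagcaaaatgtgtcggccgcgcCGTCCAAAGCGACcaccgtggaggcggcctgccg
*ATP2*, chrX:647122-647272, forward strand: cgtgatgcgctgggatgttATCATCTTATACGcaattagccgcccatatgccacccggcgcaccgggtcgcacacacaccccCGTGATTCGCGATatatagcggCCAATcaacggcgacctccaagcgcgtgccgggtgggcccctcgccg

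The stretch under the *NDI1* summits held a Hap2/3/4/5 word at offsets −228 to −221 from the coding start, negative values being upstream, and a Reb1 word at offsets −201 to −195. The *ATP7* stretch held 3 Cbf1 words, at offsets −296 to −291, −278 to −273 and −267 to −262, together with 1 Abf1 match at −352 to −340 that a TATA word overlaps. Over the 262 genes with a promoter peak in all 8 lists, windows of the same length held a Cbf1 word in 7.25%, a Reb1 word in 10.7%, a Hap2/3/4/5 word in 3.44% and an Abf1 match in 19.8%. The *QCR6* and *ATP2* stretches each held 2 Abf1 matches. They were rich in GC, at 61.6% and 62.9%, whereas the windows of those 262 genes had a median of 45.7% and a highest value of 59.6%. The *CYC1*, *ATP7* and *NDI1* stretches had 45.7%, 42.4% and 43.0% GC.

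Cytochrome *c* carries electrons from complex III to complex IV and is encoded by the paralogs *CYC1*, the main form in aerobic cells, and *CYC7*, the form associated with low oxygen. At *CYC1* (YJR048W, chromosome X, 526335 to 526664, forward strand) the fold enrichment at the summit over local background was 3.11 and 3.66 in the *HPRT1* episomal clones, 4.22 and 4.25 in the *HPRT1R* episomal clones, 4.03 and 5.34 in the *HPRT1* integrated clones and 3.74 and 4.33 in the *HPRT1R* integrated clones. The values of the SC-Leu and YPD libraries overlapped, and the 2 lowest were SC-Leu clones of *HPRT1*. The recovered pileup was 20 to 28 fragments in SC-Leu and 23 to 37 in YPD. Summits lay at −425 to −296 with a median of −374, in the 953 bp intergenic region that *CYC1* shares with the divergent gene *ANB1*, a hypoxic form of a translation factor. All 8 *CYC1* summits were nearer to *CYC1* than to any other coding start. *CYC7* had a single summit, 2.67-fold and 17 fragments, 86 bp inside its coding sequence in 1 *HPRT1* episomal clone. It was the only summit of the 73 found in members' windows that lay downstream of the coding start.

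The NADH dehydrogenases feed electrons from NADH to ubiquinone, *NDI1* on the matrix side of the inner membrane and *NDE1* on its outer face. At *NDI1* (YML120C, chromosome XIII, 28266 to 29807, reverse strand) the SC-Leu folds were 4.44 and 3.91 for *HPRT1* and 3.77 and 5.57 for *HPRT1R*. The YPD folds were 5.20 and 4.0 for *HPRT1* and 5.45 and 6.86 for *HPRT1R*. The highest value, 6.86, was the largest fold of any member in any library and came from an integrated *HPRT1R* clone, while the other 3 YPD values lay inside the SC-Leu range. Pileups ran from 24 to 40 fragments. Summits kept to a narrow interval, at −175 or −176 in 4 libraries and from −221 to −235 in the other 4, within 803 bp of intergenic DNA shared with the divergent gene *YML119W*. *NDI1* was also the only member whose peak passed a stricter threshold of −log10 q of at least 5 in all 8 lists, which 1.62% of all genes did.

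*NDE1* had no summit inside its promoter window. A peak nevertheless overlapped the window in all 8 lists, with summits at −790 to −504, folds of 3.7 to 5.53 and pileups of 24 to 33. Its nearest coding start was *NDE1* in each list. The *NDE1* peaks thus overlapped those at *NDI1* in fold but were centred beyond the window's edge.

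ATP synthase had peaks in 30 of 96 promoter and library pairs (31.2%) across 7 of 12 genes. The share of pairs was 15.4% over all genes, 56.2% for the 2 cytochrome *c* genes (9 of 16) and 50% for the 2 listed NADH dehydrogenase genes (8 of 16). *ATP7*, which encodes subunit d of the peripheral stalk (YKL016C, chromosome XI, 407465 to 407989, reverse strand), had SC-Leu folds of 4.0 and 3.91 in the *HPRT1* clones and 5.58 and 2.2 in the *HPRT1R* clones. The YPD folds were 4.81 and 4.15 in the *HPRT1* clones and 5.14 and 4.86 in the *HPRT1R* clones. The 4 YPD values lay inside the range of the 4 SC-Leu values, whose lowest, 2.2 with 14 fragments, was the weakest peak of any member. Summits lay at −374 to −214 in the 554 bp that separate *ATP7* from the divergent gene *PUT3*, the activator of proline utilisation. In 7 of the 8 libraries the summit was nearer to the start of *PUT3* than to that of *ATP7*, so the peak cannot be given to 1 of the pair.

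*ATP2* encodes the catalytic beta subunit (YJR121W, chromosome X, 647607 to 649142, forward strand) and had a peak in 7 lists. Its SC-Leu folds were 3.26 in 1 *HPRT1* clone and 3.62 and 3.08 in the *HPRT1R* clones, with no peak in the other *HPRT1* clone. Its YPD folds were 3.25 and 3.57 for *HPRT1* and 5.45 and 3.01 for *HPRT1R*. One integrated *HPRT1R* clone stood above the others, and the rest lay between 3.01 and 3.62. All 7 summits fell inside the coding sequence of the upstream gene *DMO1*, whose end is 130 bp from *ATP2*, and all were nearer to the start of *DMO1*.

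*ATP14* (subunit h) and *ATP18* (subunit i/j) had peaks in 4 lists each, 2 per medium. Their folds were 2.72 to 3.85 and 2.67 to 3.32. *ATP4*, the membrane-anchored stalk subunit b, had summits in 3 YPD libraries and in no SC-Leu library, at 3.51, 2.94 and 3.33-fold. *ATP15* (epsilon) had summits in 2 YPD libraries, at 3.43 and 5.02-fold, and *ATP16* (delta) in 1 library of each medium, at 3.7 and 2.86-fold. *ATP3* (gamma), *ATP5* (the stalk subunit OSCP), *ATP17* and *ATP20* had no summit in any list. *ATP1*, the alpha subunit, had none inside the window, but in all 8 lists a peak reached into it, with its summit at −632 to −558 at 2.93 to 4.83-fold and *ATP1* as the nearest coding start.

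**Figure D1:**
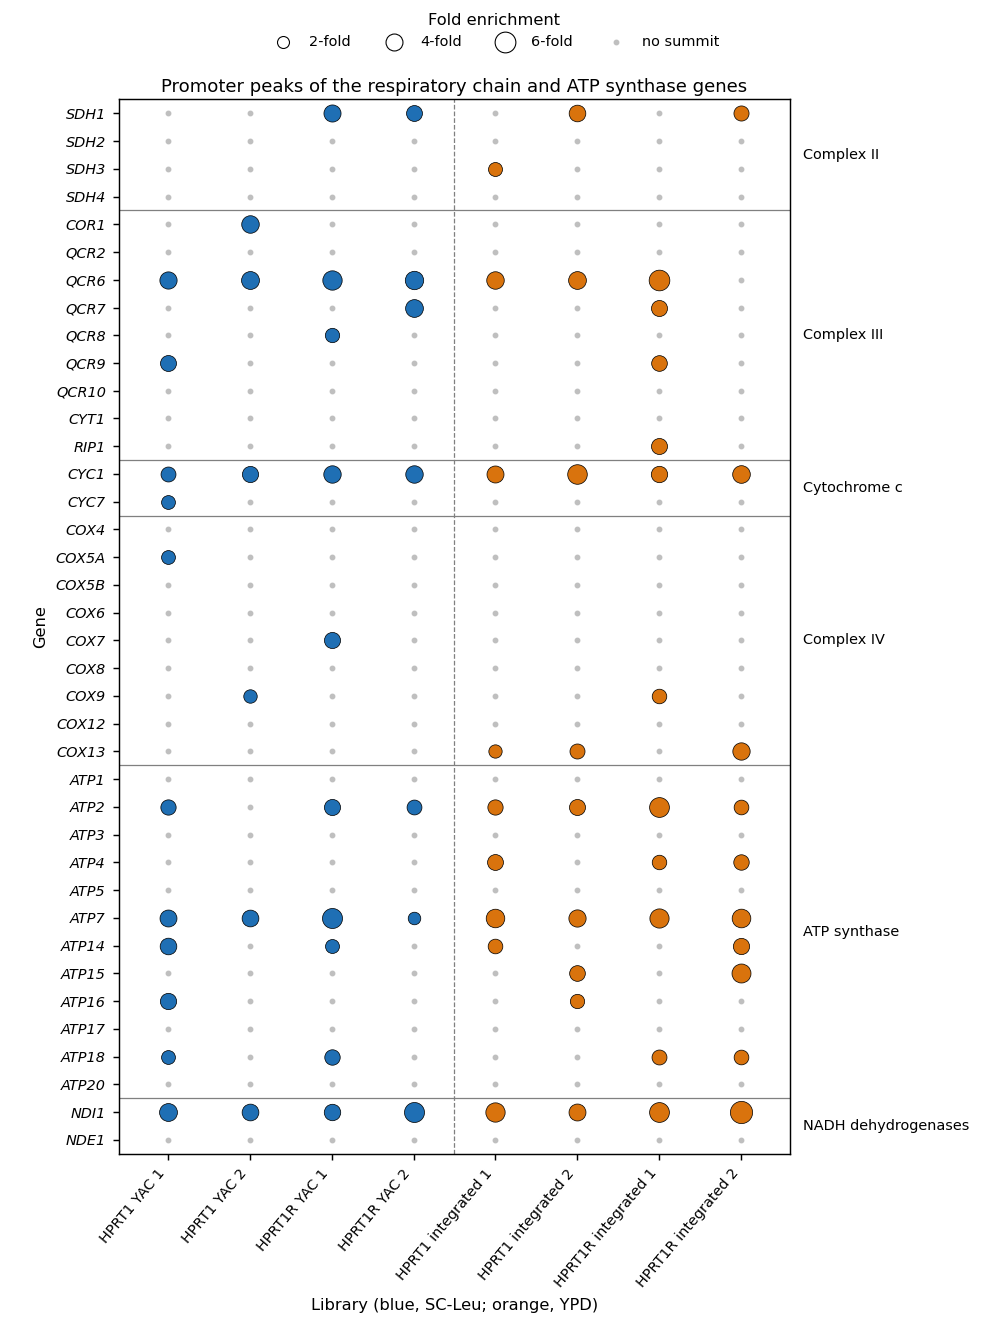
Each row is 1 of the 38 genes and each column 1 of the 8 libraries, grouped by complex and by medium; the area of a circle is proportional to the fold enrichment of the promoter peak and a grey dot marks a promoter without a summit in that list. *CYC1*, *ATP7* and *NDI1* are filled across all 8 columns, *QCR6* and *ATP2* across 7, and 16 rows hold only grey dots.

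Complex III, the cytochrome *bc1* complex, passes electrons from ubiquinol to cytochrome *c*. It had peaks in 14 of 72 promoter and library pairs (19.4%) across 6 of 9 genes, and 7 of the 14 belonged to *QCR6*. At *QCR6*, the acidic subunit (YFR033C, chromosome VI, 224326 to 224769, reverse strand), the SC-Leu folds were 4.14 and 4.45 for *HPRT1* and 5.22 and 4.72 for *HPRT1R*. The YPD folds were 4.26 and 4.39 for *HPRT1* and 5.96 for 1 *HPRT1R* clone. In the other *HPRT1R* integrated clone a peak of 5.31-fold overlapped the window with its summit just outside, at −532. The highest value of each medium came from an *HPRT1R* clone, and the media overlapped. Pileups were 37 to 60 fragments, against at most 40 at any other member, and the local background was also raised, at 1.32 to 1.70 times the genome-wide level, against at most 1.07 times for all other members. The 7 summits lay inside the coding sequence of the upstream gene *PHO4*, the activator of phosphate-responsive genes, at −493 to −313 from the *QCR6* start, while the intergenic gap is 250 bp. *ATP2*, whose stretch had a similar GC content, had no such raised background. The part of GC content and of the raised background in the *QCR6* peak was not tested.

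The core protein gene *COR1* had 1 summit in its window, 4.29-fold at −418 in an episomal *HPRT1* clone. In the other 7 lists a peak of 4.94 to 5.92-fold overlapped the window with its summit at −649 to −541, inside the divergent *YBL044W*. The small subunit genes *QCR7* and *QCR9* had summits in 2 lists each, between −172 and −216, *QCR8* in 1 list at −200, and *RIP1*, the Rieske iron-sulfur protein, in 1 list at −261. The folds of these 4 genes were 2.87 to 4.40. *QCR2*, *QCR10* and *CYT1*, the last encoding cytochrome *c1*, had no summit in any list.

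Complex II, succinate dehydrogenase, links the TCA cycle to the chain. *SDH1*, its flavoprotein, had summits in 4 lists at 3.18 to 4.07-fold, 2 of them at −497 and −495 at the edge of the window. In the other 4 lists the summit lay at −548 to −551, at 3.74 to 4.15-fold, so a peak touched the window in all 8. The nearest coding start was that of the divergent *AVT3*, a vacuolar amino acid exporter, in 3 of the 4 lists with a summit inside. The anchor subunit gene *SDH3* had 1 summit at −77 and 2.73-fold, and *SDH2*, the iron-sulfur subunit, and *SDH4* had none.

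Complex IV, cytochrome *c* oxidase, had the lowest share of the 6 groups, with 7 of 72 pairs (9.72%, against 15.4% over all genes). A peak in at least 1 list was found in 4 of its 9 genes (44.4%, against 32.1%). *COX13* had summits in 3 YPD libraries, at 2.47, 3.14 and 4.19-fold, and in no SC-Leu library. *COX9* had summits in 2 lists at 2.52 and 2.96-fold, and *COX7* in 1 list at 3.62-fold. Of the alternative subunits *COX5A*, used in aerobic cells, and *COX5B*, its hypoxic paralog, *COX5A* had 1 summit, 2.67-fold and 17 fragments at −122 in an episomal *HPRT1* clone, and *COX5B* had none. *COX4*, *COX6*, *COX8* and *COX12* had none either. The summits of complex IV genes had 17 to 24 fragments. The weakest nuclear peaks listed had 13 to 16, and the median nuclear peak of a library had 23 to 26. A promoter without a summit is not shown to be closed, since a weaker signal would not have been listed at this depth and, as at *ATP1* and *NDE1*, a peak centred outside the window can still reach into it.

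The 73 summits found in members' promoters ranged from 2.2 to 6.86-fold, with a median of 3.7, and from 14 to 60 fragments, with a median of 24. Of these, 58 were intergenic, 14 lay in a neighbouring coding sequence and 1 in the member's own, and 54 were nearest to the member's start. By position, 41 lay within 300 bp upstream and 31 further upstream. The median offset of member summits per library was −274 ± 74.8 bp (SD, n = 8), with a range from −363 to −176, and that of all promoter summits was −289 ± 7.49 bp. The larger spread goes with 6 to 11 member summits per library. A window of 200 bp upstream left no member with a peak in all 8 lists, against 0.133% of all genes, and counting any overlap of the window gave 8 members, against 9.73%.

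**Figure D2:**
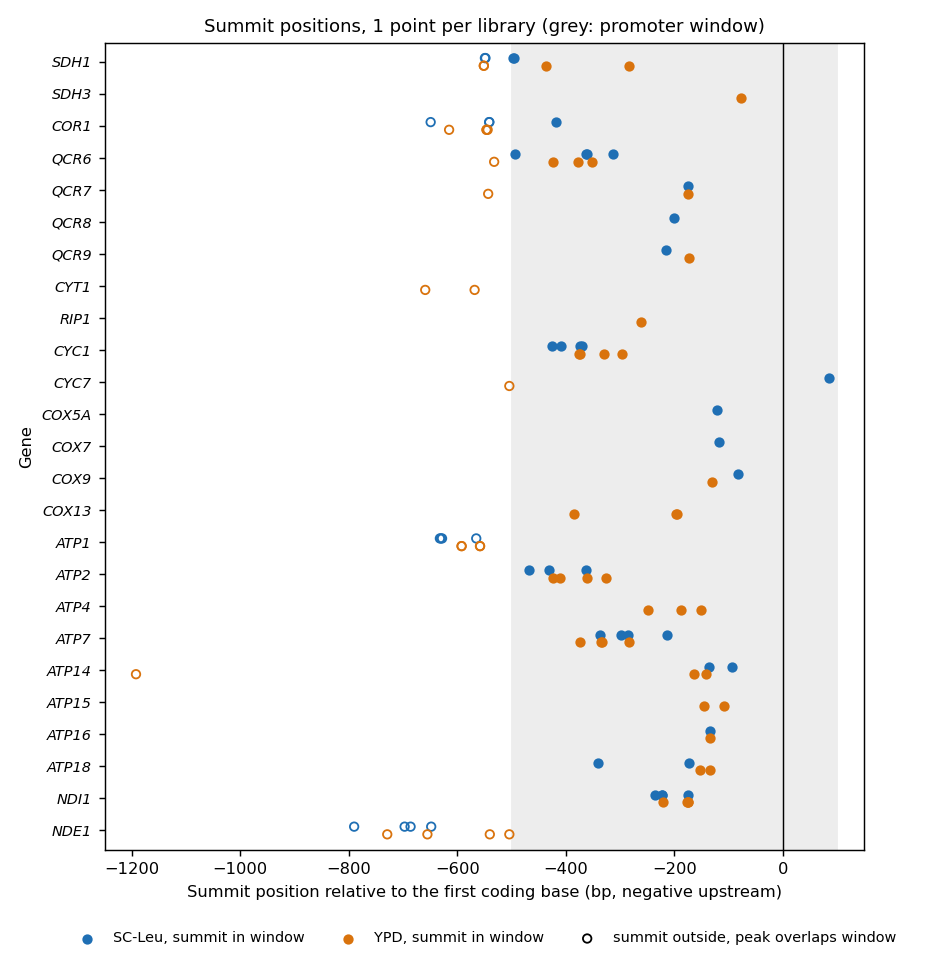
Summit position relative to the first coding base (x axis, bp) for each member with a peak in or over its promoter window (y axis), 1 point per library, blue for SC-Leu and orange for YPD; open points are summits outside the window of peaks that reach into it. The *NDI1* points sit between −235 and −175, those of *QCR6* and *ATP2* lie further than 300 bp upstream, and the open points of *ATP1* and *NDE1* lie beyond −500.

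Members with a peak more often shared their upstream region with a divergent gene. Of 15 members with a divergent neighbour, 12 had a peak in at least 1 list (80%), whereas 10 of 23 tandem members did (43.5%). Over all genes the shares were 39.9% and 23.7%, so the same order was seen genome-wide. All 3 members with a peak in every list were divergent, as were 198 of the 262 genes with such a peak. The median intergenic gap was 527.5 bp in the 22 members with a peak and 399.5 bp in the 16 without, and 586 and 392 bp over all genes, and the part of gap length in the counts was not tested.

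The members' upstream sequences were described next, from 500 bp upstream to the coding start. The Hap2/3/4/5 word occurred in 17 of 38 members (44.7%) and in 8.60% of all genes. CCAAT alone occurred in 92.1% and 62.4%, the Cbf1 word in 21.1% and 6.23%, the Abf1 consensus in 31.6% and 18.1%, and the Reb1 word in 15.8% and 10.1%. Poly(dA:dT) runs were less frequent in members, at 52.6% against 64.4%, and median GC was 36.8% against 36.6%. The exact Hap1 word was present in 1 member, *QCR6*, and in 0.350% of all genes. Hap1 sites that differ from this word were not counted. Of the 18 Hap2/3/4/5 words in members, 17 read ACCAATNA on the coding strand, and 13 lay between 300 and 100 bp upstream. The Hap2/3/4/5 word was found in 10 of 22 members with a peak (45.5%) and in 7 of 16 without (43.8%). In the same order, the Abf1 consensus stood at 45.5% and 12.5%, and TATAAA at 40.9% and 81.2%. Reb1 stood at 22.7% and 6.25%, Cbf1 at 27.3% and 12.5%, and Rox1 at 13.6% and 31.2%. CCAAT stood at 95.5% and 87.5%, and poly(dA:dT) at 50% and 56.2%. This split was not made over all genes, so it is not shown to be particular to the members. With so few genes these shares are descriptions, and no test of them was made.

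Where members had a summit, it often lay near such a word. A Hap2/3/4/5 word was centred within 75 bp of 24 of the 73 member summits (32.9%), in 10 genes, and of 2.67% of the 7382 best summits over all genes and libraries. For CCAAT the shares were 69.9% and 23.9%, for Abf1 52.1% and 22.6%, for Reb1 27.4% and 8.24%, and for Cbf1 19.2% and 6.76%. Members also held these 5 words more often anywhere in the 500 bp upstream, as with Hap2/3/4/5 at 44.7% against 8.60% and CCAAT at 92.1% against 62.4%. Whether words lie closer to summits than that alone would give was not tested. Summits of 1 promoter in several libraries share its sequence and are not independent. Of the 38 summits near an Abf1 match, *ATP2*, *QCR6* and *ATP7* gave 7 each and *CYC1* gave 6. *NDI1* gave 8 of the 24 near a Hap2/3/4/5 word and 8 of the 20 near a Reb1 word. Of the 14 near a Cbf1 word, *ATP7* gave 7 and *ATP2* gave 4. These shares therefore rest largely on a few promoters counted once per library.

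In 4 members, *COX13*, *ATP4*, *ATP14* and *NDI1*, a Hap2/3/4/5 word and a Reb1 word lay within 50 bp of each other, an arrangement found in 0.283% of all upstream regions (17 of 6002 genes) and looked for after the word positions had been seen. The first 3 are shown with 20 bases on either side, with capitals on these words only, beside 3 promoters that held the Hap2/3/4/5 word near a summit without a Reb1 word.
*COX13*, chrVII:144557-144622, forward strand: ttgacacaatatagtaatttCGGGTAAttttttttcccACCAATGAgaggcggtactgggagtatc
*ATP4*, chrXVI:408907-408977, reverse strand: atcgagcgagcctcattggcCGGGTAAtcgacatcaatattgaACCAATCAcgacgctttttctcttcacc
*ATP14*, chrXII:722511-722591, reverse strand: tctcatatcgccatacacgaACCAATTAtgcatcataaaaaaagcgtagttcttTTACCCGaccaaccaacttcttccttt
*ATP15*, chrXVI:29925-29972, forward strand: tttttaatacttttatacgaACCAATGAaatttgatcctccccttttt
*QCR7*, chrIV:1496703-1496750, reverse strand: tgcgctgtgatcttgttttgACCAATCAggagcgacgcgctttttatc
*RIP1*, chrV:106992-107039, forward strand: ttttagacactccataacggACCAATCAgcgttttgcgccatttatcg
In *COX13* and *ATP4* the Reb1 word came first, as CGGGTAA, and in *ATP14* it followed the Hap2/3/4/5 word. The summits of *ATP4* lay at −248, −150 and −187, those of *ATP15* at −109 and −145, and both of those of *QCR7* at −175, which is the last base of its word.

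**Figure D3:**
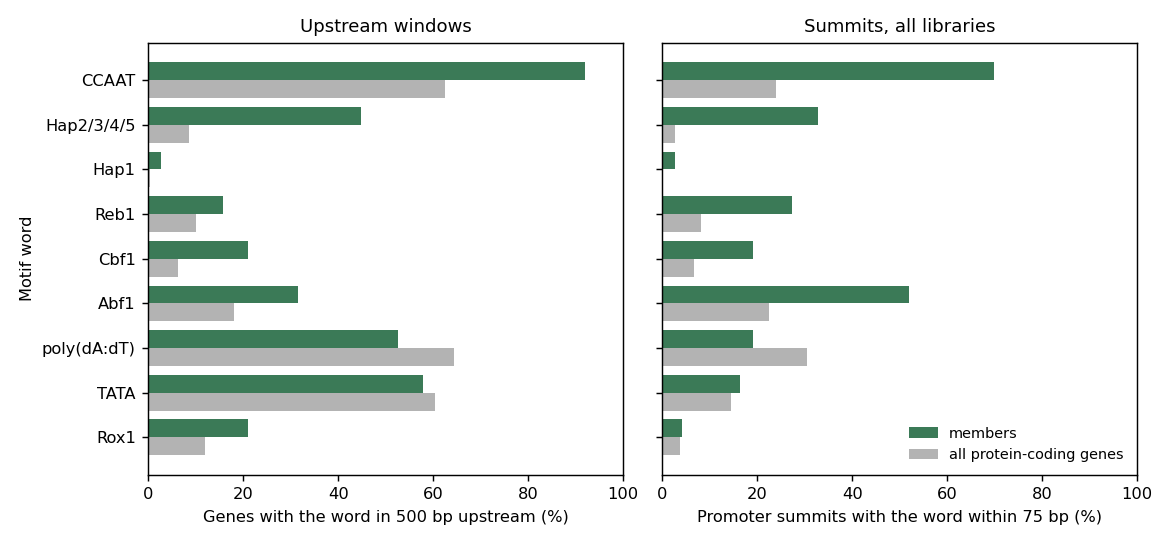
Left, the percentage of the 38 members (green) and of all 6002 genes (grey) with each word in 500 bp upstream; right, the percentage of promoter summits, pooled over libraries, with the word within 75 bp. The Hap2/3/4/5 bars are 44.7% against 8.60% on the left and 32.9% against 2.67% on the right, and the poly(dA:dT) bars are shorter for members in both panels.

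The libraries grown in SC-Leu and in YPD were compared by the number of members with a peak. The numbers were 11 and 6 of 38 in the *HPRT1* episomal clones, 10 and 7 in the *HPRT1R* episomal clones, 9 and 9 in the *HPRT1* integrated clones and 11 and 10 in the *HPRT1R* integrated clones. In the same order, 14.0%, 14.4%, 15.1%, 14.4%, 15.6%, 13.7%, 18.7% and 17.1% of all promoters had a peak, against 15.8% to 28.9% of members. The mean was 8.50 ± 2.38 in SC-Leu and 9.75 ± 0.957 in YPD (SD, n = 4 each), a difference of −1.25 promoters. With each list cut to the 988 nuclear peaks of smallest p-value the means were 8.25 and 8.50, a difference of −0.25. Clones of the same episomal strain differed by more than 1.25 promoters. Over pairs, members had a peak in 34 of 152 in SC-Leu (22.4%) and 39 of 152 in YPD (25.7%), and all genes in 14.5% and 16.3%.

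**Figure D4:**
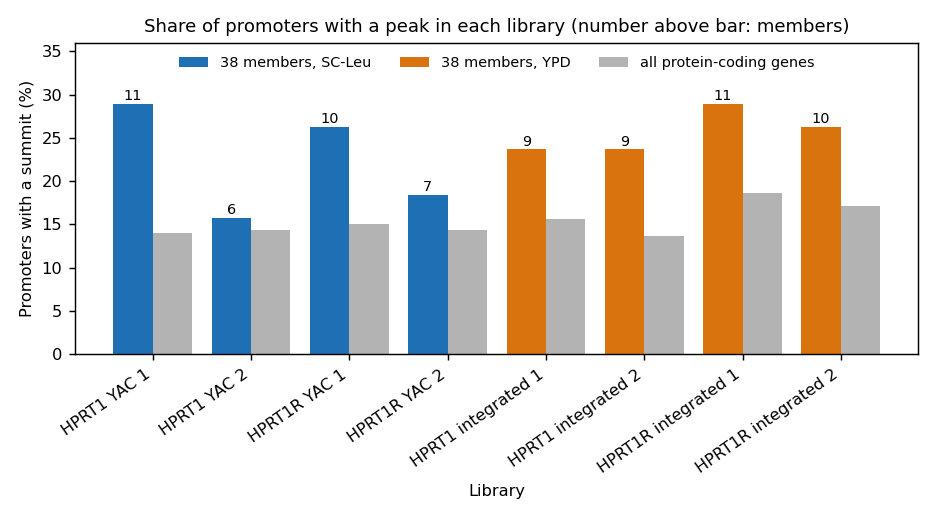
Percentage of promoters with a summit in each library for the 38 members (blue, SC-Leu; orange, YPD; numbers above the bars are members) and for all 6002 genes (grey). Members range from 15.8% to 28.9% and all genes from 13.7% to 18.7%, and the lowest member bar is an episomal *HPRT1* clone, while the highest is shared by the other *HPRT1* episomal clone and 1 *HPRT1R* integrated clone.

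No member showed a peak in each SC-Leu library but no YPD library, or the reverse. Over the 1928 genes with any promoter peak, 0.0519% showed this for SC-Leu (*SOM1*) and 0.259% for YPD (*LSB5*, *GAL2*, *YOX1*, *YDR034C-C* and *YDR034C-D*), genes named here after their values were seen. The nearest members were *COX13* and *ATP4*, with 3 YPD libraries and no SC-Leu library each, for which Fisher's exact test gave an unadjusted two-sided p of 0.143. With 4 libraries against 4 the smallest p that this test can give is 0.0286, which cannot pass adjustment over 1928 genes. Of the 22 members with a peak, 6 had it in more SC-Leu lists, 6 in more YPD lists and 10 in equal numbers. Over the 1928 genes with any promoter peak the shares were 28.7% for more SC-Leu lists and 42.6% for more YPD lists.

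Fold enrichment could be tested between media at the 262 genes with a promoter peak in all 8 lists, which included 3 members. By limma with Benjamini-Hochberg adjustment, no member passed the threshold. Of all genes tested, 0% were called higher in SC-Leu and 0.382% lower (1 gene, *GSY1*, named after its value was seen, a call lost on leaving out any of 7 of the 8 libraries), and 39 had an unadjusted p under 0.05. The mean log2 fold was 1.92 in SC-Leu and 2.11 in YPD at *CYC1*, a log2 difference of −0.19 ± 0.16 (SE, limma adjusted p = 0.613). At *NDI1* the means were 2.13 and 2.40, with a difference of −0.27 ± 0.17 (limma adjusted p = 0.440), and at *ATP7* they were 1.90 and 2.24, with a difference of −0.34 ± 0.20 (limma adjusted p = 0.376). All 3 were lower in SC-Leu, but so were 213 of the 262 genes, with a median difference of −0.13. With each library centred on its own median the differences fell to −0.03 at *CYC1*, −0.11 at *NDI1* and −0.18 at *ATP7*. Single libraries moved these values by more than 1.5 times without a call. The *ATP7* difference was −0.09 without *HPRT1R* episomal clone 2 and −0.54 without *HPRT1R* episomal clone 1. At *CYC1* it was −0.10 without *HPRT1* episomal clone 1 and −0.09 without *HPRT1* integrated clone 2, and at *NDI1* −0.15 without *HPRT1R* integrated clone 2.

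The spread between clones of a strain on the log2 scale was 0.182 at *CYC1* and 0.275 at *NDI1*, near the median of 0.197 over the genes tested, and 0.482 at *ATP7*. The difference between media was also compared between the *HPRT1* and *HPRT1R* strains. The limma interaction was called in 0% of the 262 genes, of which 12 had an unadjusted p under 0.05. At *CYC1* the log2 difference, SC-Leu minus YPD, was −0.46 in the *HPRT1* strains and 0.07 in the *HPRT1R* strains, and the limma interaction of 0.53 ± 0.28 (SE) had an adjusted p of 0.865. The 2 genes with peaks in 7 lists had values in 3 libraries of one medium. Their mean folds were 4.63 ± 0.456 in SC-Leu and 4.87 ± 0.946 in YPD at *QCR6*, and 3.32 ± 0.277 and 3.82 ± 1.11 at *ATP2* (SD, n = 3 or 4). These means leave out the library without a summit in the window. At *QCR6* that YPD library had a 5.31-fold peak centred just outside the window. At *ATP2* that SC-Leu library had no listed peak over the window, so the SC-Leu mean covers only clones with a listed peak.

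**Figure D5:**
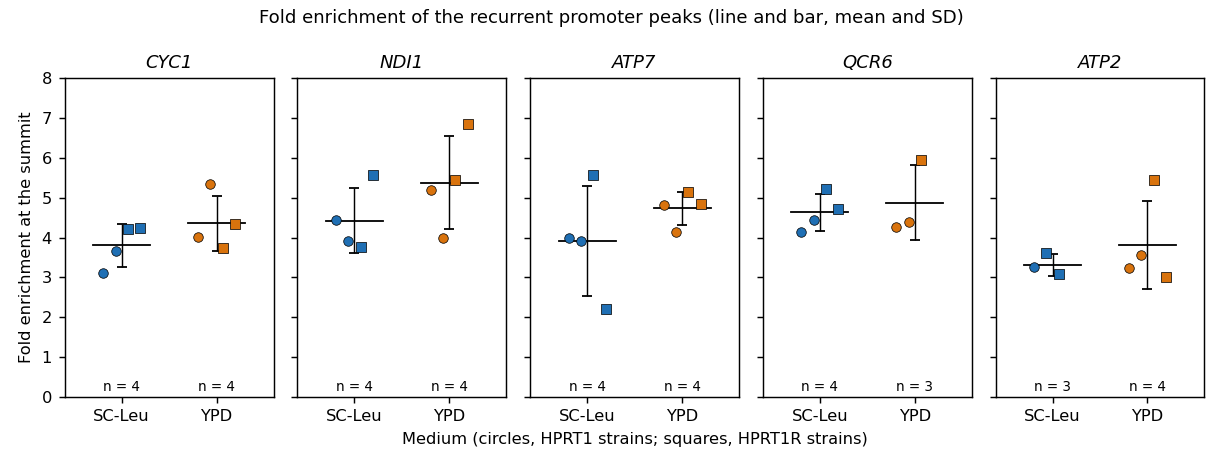
Fold enrichment at the promoter summit of the 5 members with a peak in at least 7 lists, by medium (circles, *HPRT1* strains; squares, *HPRT1R* strains; line and bar, mean and SD; n as printed). The SC-Leu and YPD points overlap for each gene, and the lowest *ATP7* point, 2.2, is a single episomal clone.

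Genes of the same pathway outside the subunit list were counted in the same way, and their counts stand beside 32.1% of all genes with a peak in at least 1 list and 4.37% in all 8. Of 11 TCA cycle genes, 8 had a promoter peak in at least 1 list, and *ACO1* (aconitase) had one in all 8. Among 30 assembly and cofactor genes 9 had a peak, a share of 30% that is close to that of all genes, with *COX20* in all 8 lists and *COX23* in 7. Both of these have divergent neighbours, that of *COX20* being *HEM1*, the first enzyme of haem synthesis. Among 8 other subunit and dehydrogenase genes 5 had a peak, led by *DLD1* (D-lactate dehydrogenase) in 7 lists and *INH1*, the ATP synthase inhibitor, in 6. Of 10 regulators, *HAP5* had a peak in 7 lists, *MIG1* in 6, *HAP1* in 5 and *MOT3* in 1, while *HAP2*, *HAP3*, *HAP4*, *ROX1*, *CAT8* and *SNF1* had none. Only 2 of these related genes entered the limma test and neither passed in either direction, with log2 differences of 0.14 ± 0.18 (SE) at *ACO1* and 0.08 ± 0.17 at *COX20* and limma adjusted p of 0.804 and 0.890.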

How the data were processed

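Open chromatin was profiled by ATAC-seq in 8 libraries of yeast. Per the labels and the study's methods, the authors used bcl2fastq 2.20, Bowtie2 2.2.9 on trimmed reads against sacCer3 with the synthetic locus added, SAMtools 1.9, deepTools 3.5.0 and MACS2 2.1.0, calling peaks per library without a control at the default q of 0.05, from paired-end fragments with duplicates kept, a mode in which reads are not shifted to the cut site. The deposited lists state, per peak, a fold enrichment (a ratio of summit pileup to local background, with the same small constant added to both). They also hold the −log10 of its p-value and, in the deposited form, −log10 of the q-value. Library depth is not in the lists, so no sampling intervals are given.

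The fragment pileup and local background were solved from the ratio and p-value, to within 0.001 in −log10 p for 99.3% to 99.6% of peaks, a step tested on simulated data. Coding starts came from RefSeq R64, whose symbols matched all members (for related genes, COQ7 is listed as CAT5). The promoter peak with the highest fold enrichment was used. Fold enrichment, log2 transformed, was tested with limma 3.58.1 in R 4.3.3 over genes with a peak in all 8 lists, and presence with Fisher's exact test, both with Benjamini-Hochberg adjustment at 0.05. Python 3.11.15, NumPy 2.4.6, pandas 2.3.3, SciPy 1.17.1 and matplotlib 3.10.9 were used. Replicates are clones of a strain. The replicate numbers did not pair the libraries.

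The rule for members uses no measured value, but the choice of this gene set, and the lists, words and tests, were made with earlier results of these data known. Given in full were members with a peak in all lists, or in all of one medium and at most 1 of the other, the 5 members with the smallest limma p (3 were tested), and the paralog pairs. *QCR6*, *ATP2* and other values of single members were added after they were seen. Alternatives covered model terms, scaling, pileup, peak threshold, window, peak number and left-out libraries.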

Additional observations from a re-analysis of the deposited data

Results flagged for a closer look

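Within the 4 libraries of a medium, members with a peak in all 4 of them and the per-library summaries of the members were searched for a sample far from the other 3, in 30 groups, where chance picks about 1 in 20. Both cases found were at single promoters. The *CYC1* pileup was 20 fragments in 1 episomal *HPRT1* clone, against 27 to 28 in the other SC-Leu libraries. The *NDI1* summit lay at −221 in 1 integrated *HPRT1* clone, against −175 or −176 in the other YPD libraries.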

How the results depend on the processing

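The number of members with a peak in all 8 lists, 3, was 8 when any overlap of the window counted, 0 with a window of 200 bp upstream and 1 with −log10 q of at least 5. It was 2 with an equal number of 988 peaks per list, and 3 to 4 without each library. The difference of −1.25 member promoters between media stayed between −3 and −0.25 under its 12 alternatives, with −0.25 at an equal number of peaks (−2.08 to −0.42 without each library). The median member offset of −274 was −355 by overlap and −142 with the shorter window, and −288 to −261 without each library. The 6 genes called by presence became 3 with the shorter window and 3 at the stricter q, alternatives added after seeing the data, and 8 by overlap.

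The single limma call between media became 0 when libraries were centred, with pileup over the genome-wide background, with genes in at least 6 libraries, with the shorter window (8 genes tested) and at the stricter q. It became 2 by overlap and 0 to 4 without each library (4 without *HPRT1R* episomal clone 1, 0 without any other), and stayed 1 with locus as a covariate or with shared summits counted once. With a replicate block it was 0, with *CYC1* at −0.19, *NDI1* at −0.27 and *ATP7* at −0.34. Deviations of same-numbered clones were uncorrelated between strains (r from −0.05 to 0.03 over 6 pairs). The causes were not tested. No limma alternative called *CYC1*, *NDI1* or *ATP7*, with adjusted p of 0.482 to 0.944, 0.230 to 0.887 and 0.152 to 0.851. Depth limits these lists to peaks of at least 13 to 16 fragments.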
